A study of Danio rerio with 15 samples.

Results

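The genes described here are 153 zebrafish genes of the ubiquitin and proteasome pathway, of 8793 genes that carried a single symbol on the Affymetrix Zebrafish Genome Array. They were chosen by name alone: genes of the proteasome (psma to psmg with a number), the ubiquitin genes, the ubiquitin-activating (uba) and ubiquitin-conjugating (ube2) enzymes, the cullins with skp1 and rbx, the F-box genes (fbxo, fbxw, fbxl), and the deubiquitinases (usp, uchl, otu). Where several probe sets carried the same symbol, as for 28 of the 153, the one with the highest mean over all arrays was used. Of the 153, psmc3ip, psme3ip1 and usp6nl match by name but encode neither a subunit of the proteasome nor a ubiquitin enzyme, and they are kept in the counts.

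Ubiquitin is a small protein that cells attach to other proteins. An activating enzyme (E1) charges it, a conjugating enzyme (E2) carries it, and a ligase (E3) directs it to a substrate, while deubiquitinases take it off again. Cullins are scaffolds of one large group of ligases, in which skp1 joins F-box proteins to the cullin and rbx1 brings in the E2. Chains of ubiquitin send many proteins to the proteasome, whose 20S core cuts them and whose regulatory 19S particle recognises, unfolds and feeds them in. In neurons this pathway takes part in axon growth and in the turnover of synaptic proteins.

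RNA was measured in 3 groups of cells taken by fluorescence-activated sorting from dissected, papain-dissociated tissue of the spinal cord region of embryos at 27 hours post fertilization. V1 interneurons, an inhibitory class of spinal interneuron called CiA in zebrafish, came from the Tg(pax2a:GFP) line after the pronephros region had been removed (6 arrays). All spinal neurons came from the Tg(elavl3:EGFP) line, which marks postmitotic neurons (5 arrays), and trunk cells were taken from embryos with no line given in the labels (4 arrays). V1 interneurons are one class of spinal neuron and trunk tissue holds neurons, but the V1 arrays also carried RNA of red cells, vessels and pigment or crest cells that was lower in the all-neuron arrays, so that V1 is not simply a subset of the all-neuron samples. In such samples, fewer cells of a type and less RNA per cell cannot be told apart. RNA went through 2 rounds of amplification in every group, and the labels do not say whether arrays of a group came from separate clutches, so that p-values measure the spread between these arrays.

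The values, normalised by RMA, are on the log2 scale. They are not comparable between probe sets, so that levels are set against each other only for the same gene. For V1, with 6 arrays, the lowest, the median and the highest value are given in that order, and for the other groups every value in array order. A gene was called higher or lower at an adjusted p under 0.05 in limma's moderated test over all 15502 tested probe sets, and ± after a difference is its standard error. All differences are of means over 6 V1, 5 all-neuron and 4 trunk arrays.

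The V1 markers en1b, pax2a, otpb and foxd3 were all called higher in V1 than in all neurons. Pax2a is the gene of the line used for the sort, so its rise is not independent of how the cells were chosen. Foxd3, unlike the other 3, was not called between all neurons and trunk (-0.41, adjusted p = 0.111). The 5 pigment and crest genes described below were higher in V1 than in all neurons as well. Their part in the rise of foxd3 was not tested. The mean of 13 markers of postmitotic neurons ran over 9.72 to 10.19 in V1 and 10.16 to 10.67 in all neurons, against 8.30 to 8.83 in trunk. Markers of other cell types differed between the groups too. The mean of 14 skeletal muscle genes was 6.98 to 7.92 in V1 arrays, 9.47, 9.68, 9.41, 7.70 and 7.92 in the 5 all-neuron arrays and 11.22 to 11.40 in trunk arrays, so that all-neuron arrays 1 to 3 stood apart from 4 and 5. The mean of 8 red cell genes was 7.51 to 9.19 in V1 arrays and 4.57 to 4.83 in all-neuron arrays, against 7.87 to 8.76 in trunk arrays. Of these 8, 8 were called higher in V1 than in all neurons. The mean of 3 vessel genes was 6.32 to 7.56 in V1 arrays and 4.06 to 4.62 in all-neuron arrays, against 6.05 to 6.74 in trunk arrays, with 3 of 3 higher in V1 than in all neurons. The mean of 5 pigment and crest genes was 8.27 to 9.51 in V1 arrays and 5.40 to 6.10 in all-neuron arrays, against 7.04 to 8.08 in trunk arrays, and 5 of 5 were higher in V1 than in either other group. Notochord genes went the other way, with a mean of 4.55 to 6.13 in V1 arrays and 7.17 to 8.03 in all-neuron arrays, against 7.03 to 7.58 in trunk arrays, and 5 of 5 were lower in V1 than in all neurons and 4 of 5 lower than in trunk. A control probe set of the array separated trunk arrays 1 and 2, at 8.03 and 8.16, from trunk arrays 3 and 4, at 5.63 and 5.71, and was at 4.98 to 5.59 in V1 arrays and 10.16 to 10.76 in all-neuron arrays. Whether the trunk arrays came from the same kind of embryo is not given in the labels. Counts were repeated without all-neuron arrays 1 to 3 and without trunk arrays 1 and 2.

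In 34 of the 153 the highest group mean lay below 5.52, the median of all values in the table, among them the inducible proteasome genes psmb8a, psmb9a, psmb12 and psmb13a. A set of 68 genes was called in none of the 3 comparisons, and 4 genes, usp13, usp2a, ube2g2 and usp42, were called in all 3. The matching shares of all genes are not given here, so these counts do not set the 153 apart. For usp42 a dimmer probe set went the other way against trunk, as described below.

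**Figure D1:**
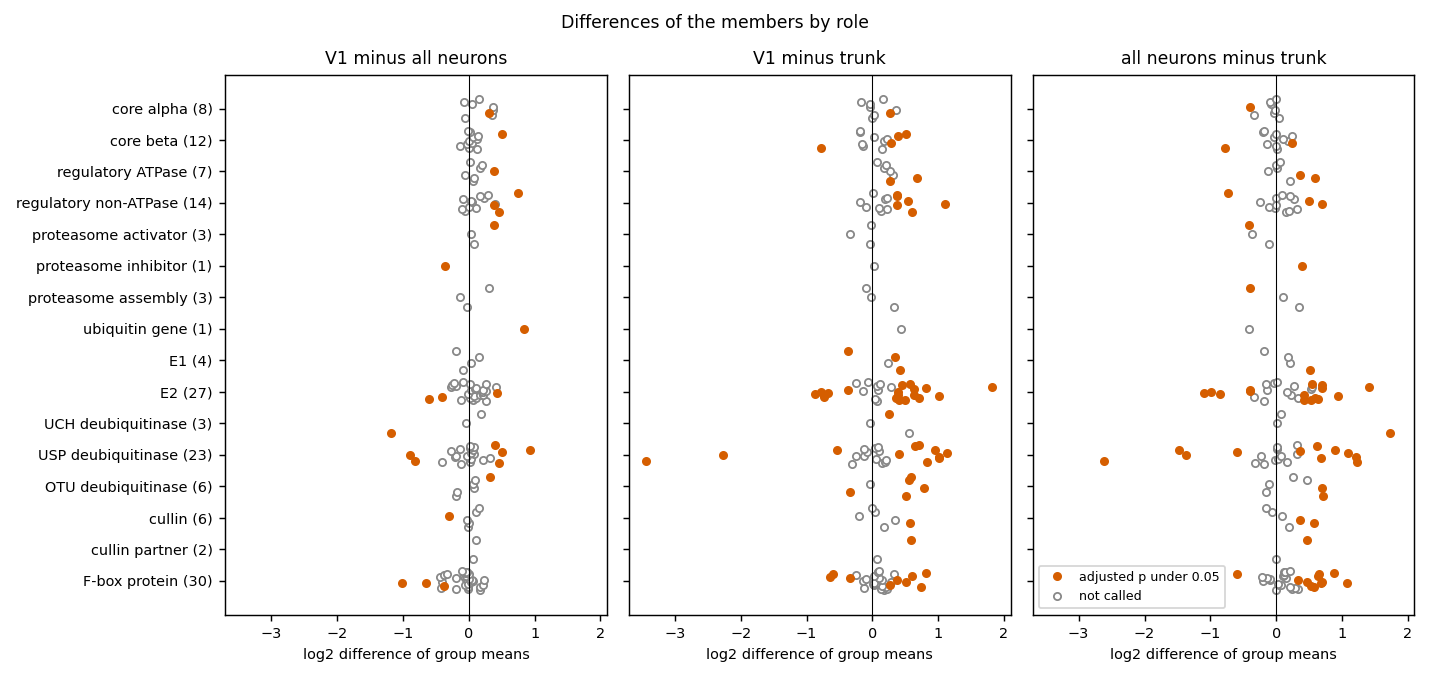
Log2 difference of group means for the genes that belong to the pathway, by role (number of genes in brackets), in V1 minus all neurons, V1 minus trunk and all neurons minus trunk. Each point is a gene, filled where the adjusted p was under 0.05. The widest spread is among the USP deubiquitinases, which reach -3.44 (usp13) in V1 minus trunk, while the proteasome genes lie above -0.78.

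The first comparison asked how V1 interneurons differ from spinal neurons as a whole. In V1 the ubiquitin gene ubb was higher, while the deubiquitinases uchl1, usp2a and usp13 and the E2 genes ube2d1b and ube2d3 were lower. Also lower were 3 of 30 F-box genes (10.0%), a share near the 9.02% of all genes. Called higher were also 6 of the 41 genes of the 20S core and 19S particle (14.6%) and 5 of the 32 deubiquitinase genes (15.6%), shares near the 15.2% of all genes. In total 14 genes were called higher and 10 lower, which is 15.7% of the 153, against 24.2% of all genes with a single symbol (22.0% of all probe sets). Called higher were 9.15% of the 153 and 15.2% of all genes, and called lower were 6.54% and 9.02%. The median difference of the 153 was 0.03, against 0.01 for all genes. Without all-neuron arrays 1 to 3, the counts were 10 higher and 6 lower (10.5%, against 20.7% of all genes), and 15 of the 24 calls were kept. Cyclic loess, another scaling of the arrays, gave 9 higher (5.88%, against 13.6% of all genes) and 11 lower (7.19%, against 10.3%). In 10 of the 24 the call held in every alternative fit that could be run, among them ubb, uchl1, psmb7 and psmd1. The V1 and all-neuron arrays did not overlap for 16 of the 153 genes, against 1296 of the 8793 genes with a single symbol (13.5% of all probe sets).

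Ubb encodes ubiquitin itself, as a chain of units that is cut after translation. It had V1 values of 11.02, 11.75 and 12.05, all-neuron values of 11.03, 10.69, 10.66, 10.82 and 10.83 and trunk values of 11.56, 11.19, 10.91 and 11.20. All V1 arrays but 1 lay above every all-neuron array, and the lowest V1 array, at 11.02, fell just under the highest all-neuron array, at 11.03. The difference of 0.85 ± 0.16 (adjusted p = 0.0015), or 1.8-fold, held in all 24 alternative fits. A dimmer probe set of ubb gave a difference of 1.00. Against trunk, V1 differed by 0.44 (95% interval 0.07 to 0.81, not called). All neurons differed from trunk by -0.41 (adjusted p = 0.0871, not called). The dimmer probe set was called lower in all neurons than in trunk, at -0.60 (adjusted p = 0.00723). The red cell, vessel and pigment and crest lists, each called higher in V1 than in all neurons in all their genes (8, 3 and 5), moved with the difference of ubb between V1 and all neurons. The pigment and crest list had the same order of group means as ubb, at 9.06 in V1 and 5.72 in all neurons, against 7.73 in trunk. So had the vessel list, at 6.855 in V1 and 4.385 in all neurons, against 6.446 in trunk. A list of 75 ribosomal protein genes had this order too, at 11.33 and 10.81, against 11.26. Between V1 and trunk, however, 0 of the 3 vessel genes were called, and 4 of the 75 ribosomal protein genes were higher and 3 lower. The red cell list was highest in trunk, at 8.45, against 8.32 in V1. A list of 9 skin genes was highest in trunk too, at 7.40, against 6.96 in V1. The part of these lists in the difference of ubb was not tested.

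A set of 41 genes carries the names of the 20S core or the 19S particle, among them psmd5, psmd9 and psmd10, which in mammals encode assembly chaperones. Of these, psmd9, psmb7, psmd1, psmc3, psmd2 and psma2b were called higher in V1 than in all neurons, or 14.6%, against 15.2% of all genes. In limma's test 11 of the 41 were higher at an unadjusted p under 0.05, and 0 were lower with or without adjustment. At the same unadjusted threshold, 1885 of all 8793 genes were higher and 1281 lower. Psmb7 is the catalytic subunit with trypsin-like activity, and it had V1 values of 10.32, 10.46 and 10.64, all-neuron values of 10.16, 9.81, 9.87, 10.05 and 9.91 and trunk values of 10.15, 9.87, 9.85 and 9.97. The lowest V1 array was above every array of both other groups. The difference was 0.50 ± 0.09 (adjusted p = 0.000519) from all neurons and 0.50 ± 0.09 (adjusted p = 0.00037) from trunk. Psmd1 and psmd2 encode the 2 large scaffold subunits of the 19S base. Psmd1 differed by 0.47 ± 0.07 (adjusted p = 0.000186), and psmd2 by 0.39 ± 0.09 (adjusted p = 0.0072), with no overlap between V1 and all neurons in either. Psmd9, whose mammalian form is an assembly chaperone of the 19S base, had V1 values of 7.28, 7.49 and 7.93, all-neuron values of 7.17, 6.67, 6.77, 6.55 and 6.74 and trunk values of 7.83, 7.72, 7.32 and 7.19, so that the all-neuron arrays were the low ones and V1 overlapped trunk. Its difference was 0.75 ± 0.15 (adjusted p = 0.00205), but its other probe set showed -0.06. The calls of psmc3, a 19S ATPase (0.39 ± 0.11, adjusted p = 0.0175), and psma2b, a 20S alpha subunit (0.30 ± 0.09, adjusted p = 0.0302), were lost when single arrays were left out and with cyclic loess (0.25, adjusted p = 0.126, for psmc3 and 0.16, adjusted p = 0.187, for psma2b). Psmc3 lost it on leaving out all-neuron array 5, with a difference of 0.34 and an adjusted p of 0.0546. Psma2b lost it on singly leaving out V1 arrays 1, 2, 5 and 6 and all-neuron arrays 2, 3 and 5, with differences of 0.26 to 0.30 and adjusted p values of 0.0508 to 0.0838. Without all-neuron arrays 1 to 3, 4 of the 41 were higher (9.76%), where 20.7% of all genes were called in either direction. The median difference of the 41 was then 0.00, against 0.08 with all arrays. The mean of 75 ribosomal protein genes moved the same way, at 11.01 to 11.55 in V1 arrays and 10.70 to 11.04 in all-neuron arrays, with 64 of 75 called higher, and its part in these differences was not tested.

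Of 3 genes for proteasome activators and 1 for an inhibitor, psme3 and the inhibitor gene were called. Psme3, the nuclear activator known as PA28 gamma, was higher in V1 by 0.39 ± 0.12 (adjusted p = 0.024), and psmf1, which encodes the proteasome inhibitor PI31, was lower by 0.37 (SE 0.10, adjusted p = 0.0199). The call of psme3 was lost on singly leaving out V1 arrays 5 and 6 and all-neuron arrays 1, 4 and 5, with differences of 0.33 to 0.38 and adjusted p values of 0.0501 to 0.07, and that of psmf1 on leaving out all-neuron array 4, with a difference of -0.31 and an adjusted p of 0.0608. The dimmer probe set of psmf1 differed by -0.54 (adjusted p = 0.00175) with all arrays.

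The deubiquitinase uchl1, one of the abundant proteins of neurons, had the largest drop in V1 against all neurons. It had V1 values of 7.07, 7.32 and 8.28, all-neuron values of 9.20, 8.07, 8.25, 8.90 and 8.69 and trunk values of 7.28, 6.80, 6.53 and 6.94. A single V1 array, at 8.28, reached into the all-neuron range, and the lowest V1 arrays lay within the trunk range. The difference was -1.18 ± 0.24 (adjusted p = 0.00198), or 2.26-fold lower, and it was called in all 24 alternative fits. Of 13 markers of postmitotic neurons, 4 were called lower in V1 than in all neurons as well, among them stmn4 (-2.17) and snap25b (-1.47), with a median difference of -0.23. The red cell, vessel and pigment and crest lists were higher in V1, and the part of these lists in this drop was not tested. Its relatives uchl3, at -0.04 (95% interval -0.27 to 0.19), and uchl5, the deubiquitinase that sits on the proteasome, at 0.18 (95% interval 0.00 to 0.36), were not called.

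Among the USP deubiquitinases, usp42 and usp36 were higher in V1. Usp36, which in human cells acts in the nucleolus, had V1 values of 7.60, 7.94 and 8.02, all-neuron values of 7.49, 7.30, 7.22, 7.34 and 7.47 and trunk values of 7.92, 7.84, 7.96 and 8.14. V1 and all neurons did not overlap, V1 and trunk did, and the difference from all neurons was 0.51 ± 0.09 (adjusted p = 0.000832). For usp42 the difference was 0.93 ± 0.18 (adjusted p = 0.00164) with no overlap, and its dimmer probe set gave 0.28, not called. Usp8, an endosomal deubiquitinase (0.40 ± 0.13, adjusted p = 0.0355), usp10 (0.46 ± 0.13, adjusted p = 0.0218) and otulinb, a gene for an enzyme of linear ubiquitin chains (0.33 ± 0.10, adjusted p = 0.0261), were called but lost the call when single arrays were left out. For usp8 this happened on singly leaving out V1 arrays 4, 5 and 6 and all-neuron arrays 2 and 3, with differences of 0.31 to 0.36 and adjusted p values of 0.0735 to 0.0997. For usp10 it happened on singly leaving out V1 array 5 and all-neuron arrays 1, 4 and 5, with differences of 0.35 to 0.45 and adjusted p values of 0.0501 to 0.0557. For otulinb it happened on singly leaving out V1 arrays 5 and 6 and all-neuron arrays 1, 2, 3 and 5, with differences of 0.29 to 0.33 and adjusted p values of 0.0506 to 0.0668. Without all-neuron arrays 1 to 3, usp8 differed by 0.19 (adjusted p = 0.444) and otulinb by 0.21 (adjusted p = 0.338). With cyclic loess the adjusted p was 0.0618 for usp8 and 0.0772 for usp10. The dimmer probe set of usp10 differed by 0.56 (adjusted p = 0.00214) in the main fit.

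The E2 gene ube2g2, whose human product works in the degradation of proteins from the endoplasmic reticulum, had V1 values of 6.99, 7.29 and 7.63, all-neuron values of 7.13, 6.90, 6.94, 6.74 and 6.61 and trunk values of 7.80, 8.03, 8.01 and 8.01. Trunk arrays were the highest and all-neuron arrays mostly the lowest, with V1 between them and overlapping all neurons only. The difference of 0.43 ± 0.13 (adjusted p = 0.0241) between V1 and all neurons lost its call on singly leaving out V1 arrays 1 and 2 and all-neuron arrays 4 and 5, with differences of 0.36 to 0.40 and adjusted p values of 0.0518 to 0.0734. The red cell, vessel and pigment and crest lists were likewise lowest in all neurons, and their part in this difference was not tested. Over the 15 arrays, the genes whose values followed ube2g2 most closely were kars1 (Pearson r = 0.968), anxa11a (0.958) and tgfbi (0.956), and among the genes of the pathway usp42 (0.912), ube2h (0.868) and psmb10 (0.814). These correlations describe arrays that fall into 3 groups and carry no test.

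Ube2d1b and ube2d3, genes for E2 enzymes of the UbcH5 type that serve many ligases, were lower in V1 by 0.61 (SE 0.16, adjusted p = 0.0132) and 0.41 (SE 0.12, adjusted p = 0.0219), with no overlap between the groups. Ube2d3 lost its call on leaving out V1 array 2, with a difference of -0.35 and an adjusted p of 0.0502, and both lost it without all-neuron arrays 1 to 3, where the differences were close to those with all arrays, at -0.69 (adjusted p = 0.0571) for ube2d1b and -0.40 (adjusted p = 0.147) for ube2d3. The F-box genes fbxo16 (-1.01 ± 0.19, adjusted p = 0.00137), fbxo2 (-0.65 ± 0.20, adjusted p = 0.0292) and fbxl5 (-0.38 ± 0.10, adjusted p = 0.0144) were lower as well. In mammals, fbxo2 binds glycoproteins and is rich in the nervous system, and fbxl5 senses iron. Fbxo16 was dim, with a mean of 4.28 ± 0.43 in V1 and 5.29 ± 0.25 in all neurons (SD), both under the median of all values. Fbxo2 lost its call on singly leaving out V1 arrays 2 and 3 and all-neuron arrays 1, 4 and 5, with differences of -0.63 to -0.53 and adjusted p values of 0.0577 to 0.0857, and fbxl5 only without all-neuron arrays 1 to 3, where its difference was larger (-0.44, adjusted p = 0.0559). Of 6 cullin genes, cul4b was called, at -0.30 ± 0.09 (adjusted p = 0.0245), and this was lost on singly leaving out V1 arrays 2 and 6 and all-neuron arrays 1 and 3, with differences of -0.28 to -0.26 and adjusted p values of 0.051 to 0.0678. Without all-neuron arrays 1 to 3, cul4b differed by -0.19 (adjusted p = 0.332). Of the 4 E1 genes 0 were called in limma's test and 1 had an unadjusted p under 0.05, with differences from -0.19 (uba7) to 0.16 (uba3), and neither skp1 (0.11, 95% interval -0.17 to 0.40) nor rbx1 (0.06, 95% interval -0.17 to 0.29) was.

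**Figure D2:**
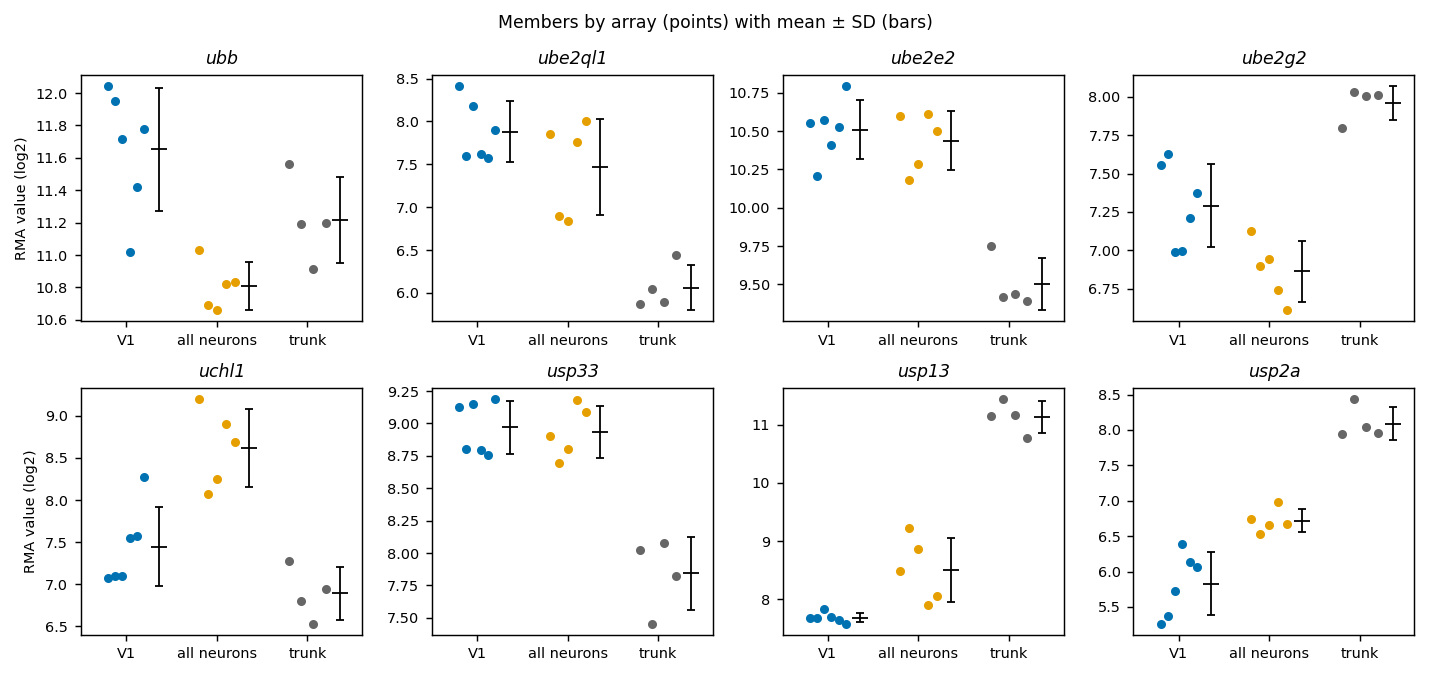
RMA values (log2) of 8 genes on every array (points) with the mean and SD (bars) for V1, all neurons and trunk. The mean of ubb is highest in V1, that of uchl1 in all neurons, those of ube2g2, usp13 and usp2a in trunk, and ube2ql1, ube2e2 and usp33 are higher in both neuron groups than in trunk. Vertical axes differ between panels and do not start at 0.

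The second comparison set V1 interneurons against all trunk cells. In V1 the E2 genes ube2ql1 and ube2e2, the deubiquitinase genes usp33, usp19, usp20 and usp38, the F-box gene fbxw11b, and 12 of the 41 proteasome genes (29.3%, against 23.3% of all genes) were higher. The deubiquitinase genes usp13 and usp2a, the E2 genes ube2g1b, ube2h and ube2g2 and the inducible proteasome gene psmb10 were lower. In all, 49 genes were higher in V1 and 15 lower, or 41.8% of the 153, against 43.9% of all genes with a single symbol (40.0% of all probe sets). The share called higher was 32.0%, against 23.3% of all genes, and the share called lower was 9.80%, against 20.6%. The median difference was 0.14 for the 153 and -0.03 for all genes, and -0.0045 for the 153 with cyclic loess. With cyclic loess, 29 were higher (19.0%, against 18.9% of all genes) and 19 lower (12.4%, against 22.0%), so that the larger share of higher genes depended on the scaling of the arrays. Without trunk arrays 1 and 2 the split was 51 and 12 (41.2%, against 31.2% of all genes), and 50 of the 64 calls were kept. In 31 of the 64 the call held in every alternative fit that could be run. The V1 and trunk arrays did not overlap for 41 of the 153 genes, against 2606 of the 8793 genes with a single symbol (26.8% of all probe sets).

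The E2 gene ube2ql1 had the largest rise in V1 over trunk. It had V1 values of 7.58, 7.76 and 8.42, all-neuron values of 7.85, 6.89, 6.84, 7.75 and 8.01 and trunk values of 5.87, 6.05, 5.89 and 6.44. Both groups of neurons lay wholly above trunk, and the all-neuron arrays split into 2 low and 3 high ones. The difference of V1 from trunk was 1.82 ± 0.24 (adjusted p = 2.1e-05), or 3.53-fold, and that of all neurons from trunk was 1.41 ± 0.25 (adjusted p = 0.000273). A dimmer probe set of ube2ql1 gave smaller differences from trunk, of 0.61 (adjusted p = 0.000164) in V1 and 0.74 (adjusted p = 2.86e-05) in all neurons. Another E2 gene, ube2e2, had V1 values of 10.20, 10.54 and 10.80, all-neuron values of 10.60, 10.18, 10.29, 10.61 and 10.50 and trunk values of 9.75, 9.42, 9.44 and 9.39, without overlap between either neuron group and trunk, and differed by 1.01 ± 0.12 (adjusted p = 7.27e-06) between V1 and trunk. Further E2 genes higher in V1 were ube2q1 (0.81 ± 0.12, adjusted p = 7.62e-05), ube2g1a (0.63 ± 0.10, adjusted p = 7.61e-05) and ube2v1 (0.56 ± 0.09, adjusted p = 0.000171), whose product pairs with Ubc13 to build chains through lysine 63. Of all 27 E2 genes, 13 were higher (48.1%, against 23.3% of all genes) and 5 lower (18.5%, against 20.6%) in V1 than in trunk. With cyclic loess 6 were higher (22.2%, against 18.9%) and 6 lower (22.2%, against 22.0%), and ube2g1a differed by 0.37 (adjusted p = 0.0043) and ube2v1 by 0.31 (adjusted p = 0.0226).

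The E2 genes lower in V1 than in trunk were ube2g1b (-0.87 ± 0.15, adjusted p = 0.000214), ube2h (-0.78 ± 0.16, adjusted p = 0.000835), ube2d3 (-0.74 ± 0.13, adjusted p = 0.000217), ube2g2 (-0.67 ± 0.14, adjusted p = 0.00095) and ube2l3b (-0.37 ± 0.11, adjusted p = 0.0158). Ube2h is the E2 of the CTLH ligase in mammals, and ube2l3 serves ligases of the HECT and RBR types. The call of ube2l3b was lost on leaving out trunk array 3, with a difference of -0.27 and an adjusted p of 0.0661. The other probe set of ube2g1b differed by only -0.18.

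Of the 4 E1 genes, 2 were higher and 1 lower in V1 than in trunk. Uba1, the main activating enzyme of ubiquitin, was higher in V1 by 0.42 ± 0.13 (adjusted p = 0.0217), and uba3, of the enzyme that activates the cullin modifier Nedd8, by 0.34 ± 0.08 (adjusted p = 0.00246). Uba7, whose mammalian form activates the interferon-induced modifier ISG15, was dim and lower by 0.38 (SE 0.13, adjusted p = 0.0325). Uba2, of the enzyme that activates SUMO, differed by 0.24 (95% interval -0.06 to 0.53, not called). Uba1 lost its call on leaving out trunk array 4, with a difference of 0.28 and an adjusted p of 0.0918, and uba7 on singly leaving out V1 arrays 5 and 6 and trunk arrays 1 and 2, with differences of -0.36 to -0.24 and adjusted p values of 0.0569 to 0.146. With cyclic loess the adjusted p was 0.637 for uba1, 0.183 for uba3 and 0.0756 for uba7, and uba7 also lost its call without trunk arrays 1 and 2 (-0.08, adjusted p = 0.658).

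Deubiquitinase genes lay at both ends of the range. Usp33 had V1 values of 8.75, 8.97 and 9.19, all-neuron values of 8.90, 8.69, 8.80, 9.18 and 9.09 and trunk values of 8.02, 7.46, 8.08 and 7.82, and its difference of 1.13 ± 0.14 (adjusted p = 9.81e-06) separated V1 from trunk without overlap. Usp33 and its close relative usp20 act on cell surface receptors and on cell movement in mammals, and usp20 was higher by 1.00 ± 0.15 (adjusted p = 7.83e-05), with a mean of 5.48 ± 0.31 in V1 and 4.48 ± 0.25 in trunk (SD), under the median of all values. Usp19, which in mammals has a form anchored in the endoplasmic reticulum, was higher by 1.01 ± 0.15 (adjusted p = 5.45e-05), usp38 by 0.95 ± 0.11 (adjusted p = 6.98e-06), usp12a by 0.83 ± 0.18 (adjusted p = 0.00199) and otud5a by 0.78 ± 0.08 (adjusted p = 1.77e-06). Of the 32 deubiquitinase genes, 13 were called higher (40.6%, against 23.3% of all genes) and 4 lower (12.5%, against 20.6%) in V1 than in trunk. With cyclic loess they were 12 (37.5%, against 18.9%) and 5 (15.6%, against 22.0%).

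The 4 lower deubiquitinase genes were usp13, usp2a, usp42 and otud4. Otud4 lost its call without trunk arrays 1 and 2, at -0.19 (adjusted p = 0.216), against -0.33 ± 0.10 (adjusted p = 0.0108) with all arrays. Usp13 had V1 values of 7.59, 7.68 and 7.83, all-neuron values of 8.50, 9.23, 8.86, 7.90 and 8.06 and trunk values of 11.15, 11.44, 11.16 and 10.77. The 3 groups did not overlap, and all-neuron arrays 1 to 3 were the 3 highest of that group. V1 was 10.9-fold lower than trunk (-3.44 ± 0.21, adjusted p = 1.13e-08), and all neurons were 6.15-fold lower than trunk (-2.62 ± 0.21, adjusted p = 1.65e-07). Usp2a had V1 values of 5.27, 5.89 and 6.39, all-neuron values of 6.75, 6.54, 6.66, 6.99 and 6.67 and trunk values of 7.94, 8.44, 8.04 and 7.95, again with 3 separate groups, and V1 differed from trunk by -2.26 ± 0.19 (adjusted p = 2.67e-07). The muscle list was lower in both comparisons against trunk as well, with 14 of its 14 genes lower in V1 and in all neurons. Within the all-neuron arrays the list was highest in arrays 1 to 3, as usp13 was. Usp2a did not follow it there and was highest in array 4, at 6.99. Without all-neuron arrays 1 to 3, the difference of usp13 between V1 and all neurons was -0.29 (adjusted p = 0.195), against -0.82 ± 0.19 (adjusted p = 0.00597) with all arrays, whereas usp2a kept its call. Ube2g1b had V1 values of 7.27, 7.66 and 7.86, all-neuron values of 7.68, 7.92, 7.95, 7.33 and 7.35 and trunk values of 8.26, 8.70, 8.54 and 8.51, with all-neuron arrays 1 to 3 again above 4 and 5. The part of muscle RNA in these differences was not tested. For fbxo32, an F-box gene known as atrogin-1 in muscle wasting, the signal was dim in every group (highest group mean 3.01 ± 0.19, SD, in V1) and no difference was called.

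For usp42 the probe sets conflicted. The brightest one was lower in V1 than in trunk by 0.54 (SE 0.19, adjusted p = 0.0347), and the dimmer one was higher by 0.81 (adjusted p = 0.00145). The call of the brightest was lost on singly leaving out V1 arrays 3, 4 and 5 and trunk arrays 2 and 4, with differences of -0.59 to -0.42 and adjusted p values of 0.0532 to 0.124. The mean of the 2 probe sets differed by 0.13 (adjusted p = 0.509), so that the direction of usp42 against trunk was not settled.

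**Figure D3:**
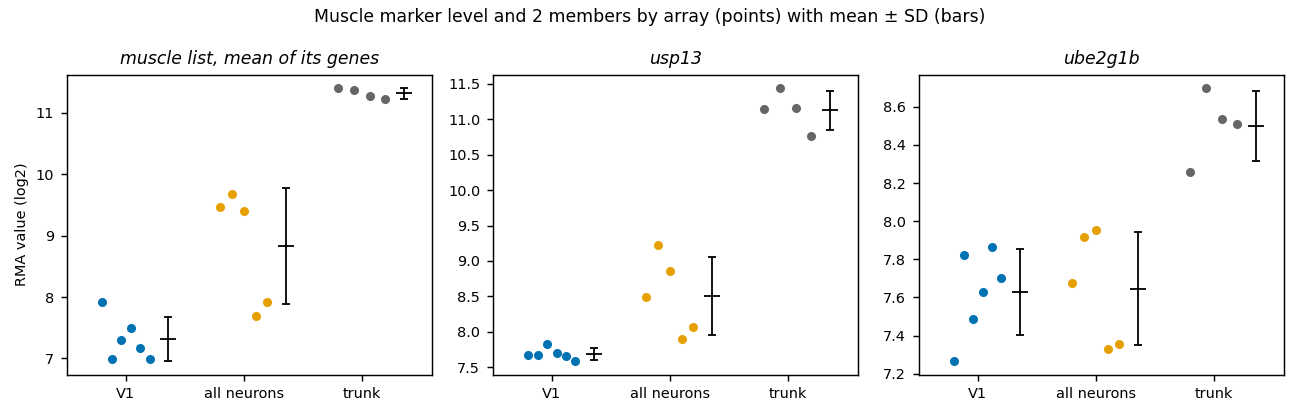
RMA values (log2) on every array (points) with mean and SD (bars) of the mean of 14 skeletal muscle genes, of usp13 and of ube2g1b. In the muscle list and usp13, all-neuron arrays 1 to 3 lie above arrays 4 and 5, and trunk arrays are highest in all 3 panels. Vertical axes do not start at 0.

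Of the 41 proteasome genes, 12 were called higher in V1 than in trunk (29.3%, against 23.3% of all genes). Psmb10 was the 1 called lower (2.44%, against 20.6% of all genes). Of the 12, 8 were among the 21 genes named for the 19S particle (38.1%) and 4 among the 20 of the 20S core (20.0%). The share of the core was below the 23.3% of all genes, but its 20 genes include the 5 inducible beta genes, of which 0 were called higher. Without these 5, 12 of 36 proteasome genes were higher (33.3%). The difference between the shares of the 2 parts was not tested. Psmd3, a subunit of the 19S lid, was 2.14-fold higher (adjusted p = 3.62e-05). On the log2 scale psmc1b, an ATPase of the base, was higher by 0.67 ± 0.13 (adjusted p = 0.000526), psmd1 by 0.61 ± 0.08 (adjusted p = 9.8e-06), and psmd4b, a gene for the ubiquitin receptor of the particle, by 0.53 ± 0.10 (adjusted p = 0.000574). With cyclic loess psmc1b differed by 0.42 (adjusted p = 0.0138), psmd1 by 0.35 (adjusted p = 0.00291), psmd4b by 0.29 (adjusted p = 0.0389) and psmb7 by 0.20 (adjusted p = 0.045). The 41 had a median difference of 0.18. This median was -0.07 with cyclic loess, with 5 higher (12.2%, against 18.9% of all genes) and 3 lower (7.32%, against 22.0%), so its sign depends on how the arrays were scaled. Without trunk arrays 1 and 2 the count was 21 higher and 1 lower of the 41, where 31.2% of all genes were called in either direction. The mean of the 36 proteasome genes without the inducible beta genes was 9.24 to 9.36 in V1 arrays and 8.98 to 9.24 in all-neuron arrays, against 8.85 to 9.21 in trunk arrays.

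The inducible beta genes replace the catalytic subunits of the core in immune cells and after interferon. Of the 5 measured, only psmb10 was called. It had V1 values of 5.73, 6.10 and 6.64, all-neuron values of 6.39, 6.18, 5.98, 6.15 and 6.20 and trunk values of 7.02, 7.22, 6.87 and 6.72, so that both groups of neurons were below trunk in every array. V1 was 1.71-fold lower than trunk (-0.77 ± 0.16, adjusted p = 0.00131) and all neurons were lower by 0.78 (SE 0.17, adjusted p = 0.00147). The other 4, psmb8a, psmb9a, psmb12 and psmb13a, were dim in all groups.

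**Figure D4:**
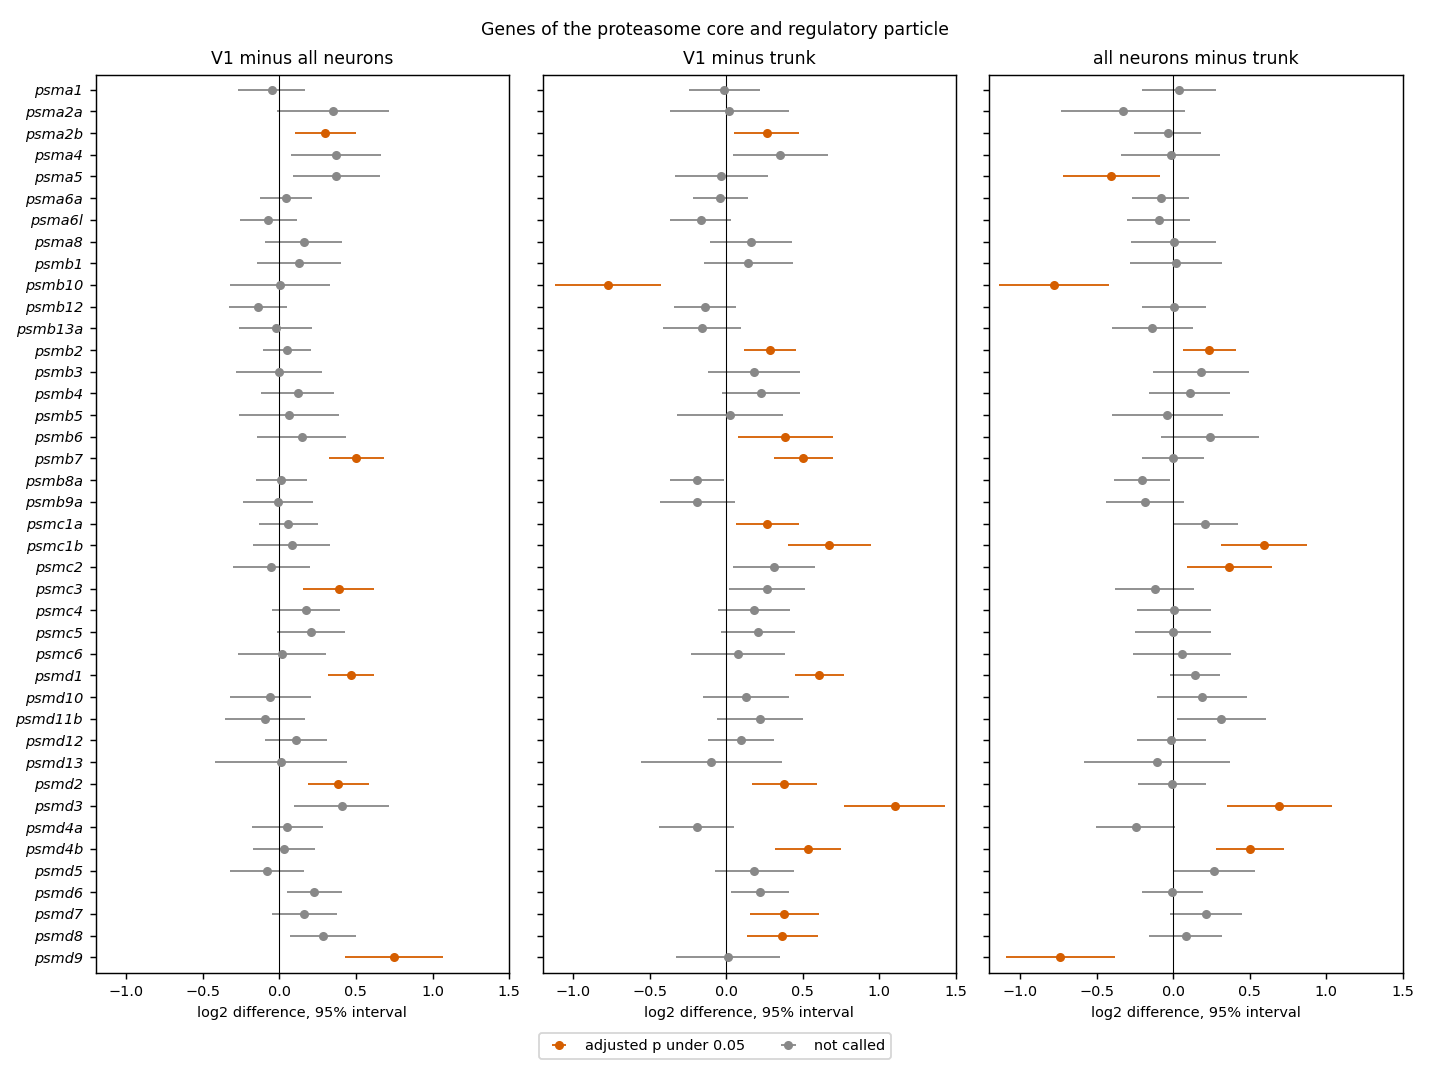
Log2 differences of the 41 genes of the core and the regulatory (19S) particle with 95% intervals, for V1 minus all neurons, V1 minus trunk and all neurons minus trunk. Orange marks an adjusted p under 0.05. Psmd1 and psmb7 are to the right of zero in both V1 comparisons, psmd3 is the furthest to the right in V1 minus trunk, and psmb10 is at -0.77 and -0.78 against trunk.

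Among the cullin ligases, cul1b, a scaffold of the SCF ligases, was higher in V1 than in trunk by 0.57 ± 0.14 (adjusted p = 0.00351), and skp1, the link to F-box proteins, by 0.59 ± 0.14 (adjusted p = 0.00408) (0.32 and not called with cyclic loess, adjusted p = 0.114), while rbx1 showed 0.07 (95% interval -0.18 to 0.31, not called). The F-box gene fbxw11b, a beta-TrCP gene that marks beta-catenin for degradation, had V1 values of 8.29, 8.81 and 9.34, all-neuron values of 8.96, 8.67, 8.69, 9.04 and 9.07 and trunk values of 7.82, 8.16, 8.15 and 7.90, and its difference from trunk was 0.82 ± 0.19 (adjusted p = 0.00254) in V1. Fbxl4, a mitochondrial protein in humans, was higher by 0.73 ± 0.14 (adjusted p = 0.000609). In all, 6 of 30 F-box genes were higher in V1 than in trunk (20.0%, against 23.3% of all genes). Lower were 3, fbxo44.9, fbxo9 and fbxo44.5 (10.0%, against 20.6% of all genes). The call of fbxo9 was lost without trunk arrays 1 and 2 (-0.27, adjusted p = 0.143). Fbxo44.9 lost its call on leaving out trunk array 4, with a difference of -0.58 and an adjusted p of 0.0532. Fbxo44.5 lost its call on singly leaving out V1 arrays 3, 4, 5 and 6, all-neuron array 4 and trunk arrays 3 and 4, with differences of -0.35 to -0.26 and adjusted p values of 0.0502 to 0.141.

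The third comparison, of all spinal neurons with trunk cells, uses the same trunk arrays as the second. All neurons had more uchl1, ube2ql1, usp12a, usp20 and usp33 and less usp13, usp2a and ube2g2 than trunk cells. Usp42 was lower by its brightest probe set and higher by its dimmer one. The comparison gave 41 higher and 16 lower genes, or 37.3% of the 153, against 46.3% of all genes with a single symbol (41.4% of all probe sets). Higher were 26.8% of the 153, against 20.8% of all genes, and lower 10.5%, against 25.4%. The median difference was 0.09, against -0.06 for all genes. With cyclic loess 35 were higher (22.9%, against 19.0% of all genes) and 24 lower (15.7%, against 26.4%). Without trunk arrays 1 and 2 they were 34 and 11 (29.4%, against 37.3% of all genes), and 37 of the 57 calls were kept. In 31 of the 57 the call held in every alternative fit that could be run. The groups did not overlap for 52 of the 153 genes, against 3628 of the 8793 genes with a single symbol (36.7% of all probe sets).

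In this comparison uchl1 had the largest rise, of 1.73 ± 0.26 (adjusted p = 5.75e-05), or 3.32-fold, and every all-neuron array was above every trunk array. It was followed by ube2ql1, usp12a (1.23 ± 0.19, adjusted p = 7.58e-05), usp20 (1.22 ± 0.16, adjusted p = 1.4e-05), usp33 (1.09 ± 0.14, adjusted p = 1.62e-05), fbxo16 (1.07 ± 0.21, adjusted p = 0.000736), ube2e2 (0.94 ± 0.13, adjusted p = 1.81e-05), usp38 (0.89 ± 0.12, adjusted p = 1.57e-05) and fbxw11b (0.88 ± 0.20, adjusted p = 0.00172). Of 30 F-box genes, 10 were called higher (33.3%, against 20.8% of all genes) and 1, fbxo9 (-0.60 ± 0.15, adjusted p = 0.00411), lower (3.33%, against 25.4%), and 19 were not called. The call of fbxo9 was lost without trunk arrays 1 and 2 (-0.28, adjusted p = 0.134). So were the calls of the higher genes fbxl4 (0.38, adjusted p = 0.1) and fbxo2 (0.72, adjusted p = 0.056). Fbxo25 (0.58, adjusted p = 0.0721) and fbxo42 (0.32, adjusted p = 0.0586), both dim, lost theirs as well. Uba1 was higher by 0.51 ± 0.14 (adjusted p = 0.00802), the only E1 gene called, and its adjusted p was 0.0803 with cyclic loess. Of the cullin genes, cul1b (0.57 ± 0.14, adjusted p = 0.00393) and cul3a (0.36 ± 0.14, adjusted p = 0.0461) were called higher. The call of cul3a was lost on singly leaving out V1 arrays 1, 2 and 4, all-neuron arrays 1 and 4 and trunk arrays 1, 2, 3 and 4, with differences of 0.25 to 0.40 and adjusted p values of 0.0502 to 0.111, and its dimmer probe set was called lower, at -0.94. The mean of its probe sets differed by -0.29 (adjusted p = 0.0666). Skp1 was higher by 0.47 ± 0.15 (adjusted p = 0.0179), which was lost on leaving out trunk array 1, with a difference of 0.42 and an adjusted p of 0.0563, and with cyclic loess (0.30, adjusted p = 0.157).

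The genes lower in all neurons than in trunk were led by usp13, usp42 (-1.47 ± 0.20, adjusted p = 2.17e-05), usp2a (-1.37 ± 0.20, adjusted p = 4.24e-05), ube2g2 (-1.10 ± 0.14, adjusted p = 1.15e-05), ube2h (-0.98 ± 0.16, adjusted p = 0.000124) and ube2g1b (-0.85 ± 0.15, adjusted p = 0.000295). The dimmer probe set of ube2g1b differed by 0.18 and was not called. The dimmer probe set of usp42 was higher in all neurons, by 0.52 (adjusted p = 0.0270). Psmd9 was lower by 0.74 (SE 0.17, adjusted p = 0.002), a call that was lost without trunk arrays 1 and 2 (-0.48, adjusted p = 0.0668). Usp36 was lower by 0.60 (SE 0.10, adjusted p = 0.000171) and psme3 by 0.41 (SE 0.13, adjusted p = 0.0169). In ube2g2, usp42, psmd9, usp36 and psme3, V1 was above all neurons, and several lists were lower in all neurons than in trunk as well, with 8 of 8 red cell genes, 3 of 3 vessel genes, 5 of 5 pigment and crest genes, 7 of 9 skin genes and 55 of 75 ribosomal protein genes called lower. Their part in these differences was not tested. Of the 41 proteasome genes, 5 were higher (12.2%, against 20.8% of all genes) and 3 lower (7.32%, against 25.4%), with a median difference of 0.00. Psmf1 was higher by 0.39 ± 0.12 (adjusted p = 0.0137), which was lost on leaving out trunk array 1, with a difference of 0.31 and an adjusted p of 0.0553. Its dimmer probe set differed by 0.56 (adjusted p = 0.00106) with all arrays. Of the 3 assembly chaperone genes psmg1, psmg2 and psmg3, psmg3 was lower by 0.40 (SE 0.15, adjusted p = 0.0431), a call that was lost on singly leaving out V1 arrays 2 and 6, all-neuron arrays 1, 4 and 5 and trunk arrays 1, 2 and 3, with differences of -0.41 to -0.32 and adjusted p values of 0.0509 to 0.131.

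Zebrafish carry many genes as a and b copies, which allowed 13 pairs to be compared within each comparison by an exact two-sided permutation test over arrays of the difference between the copies. Against trunk, ube2g1a and ube2g1b were furthest apart. Between V1 and trunk, ube2g1a differed by 0.63 and ube2g1b by -0.87, a gap of 1.50 (exact p = 0.00952, the smallest that 6 and 4 arrays allow, adjusted p = 0.0619 over the 13 pairs). Between all neurons and trunk the 2 copies differed by 0.42 and -0.85, a gap of 1.27 (exact p = 0.0159, again the smallest possible, adjusted p = 0.0516). The gap rests on the brightest probe set of ube2g1b, as the other one differed by -0.18 between V1 and trunk and by 0.18 between all neurons and trunk, neither called. Between V1 and all neurons the widest gap was that of ube2d1a (0.07) and ube2d1b (-0.61), at 0.68 (exact p = 0.026, adjusted p = 0.113 over the 13 pairs). Psmd4a and psmd4b showed -0.19 and 0.53 between V1 and trunk, and -0.25 and 0.50 between all neurons and trunk. After adjustment 0 of the 13 pairs passed 0.05 in any comparison, and at an unadjusted exact p under 0.05 there were 4 between V1 and all neurons, 6 between V1 and trunk and 4 between all neurons and trunk. The smallest exact p that the arrays allow between V1 and all neurons was 0.00433. In each comparison, a single pair at the smallest possible p could not pass the adjustment over 13 pairs, however far apart its copies were. The count of 0 therefore does not show that the copies of a pair behave alike.

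**Figure D5:**
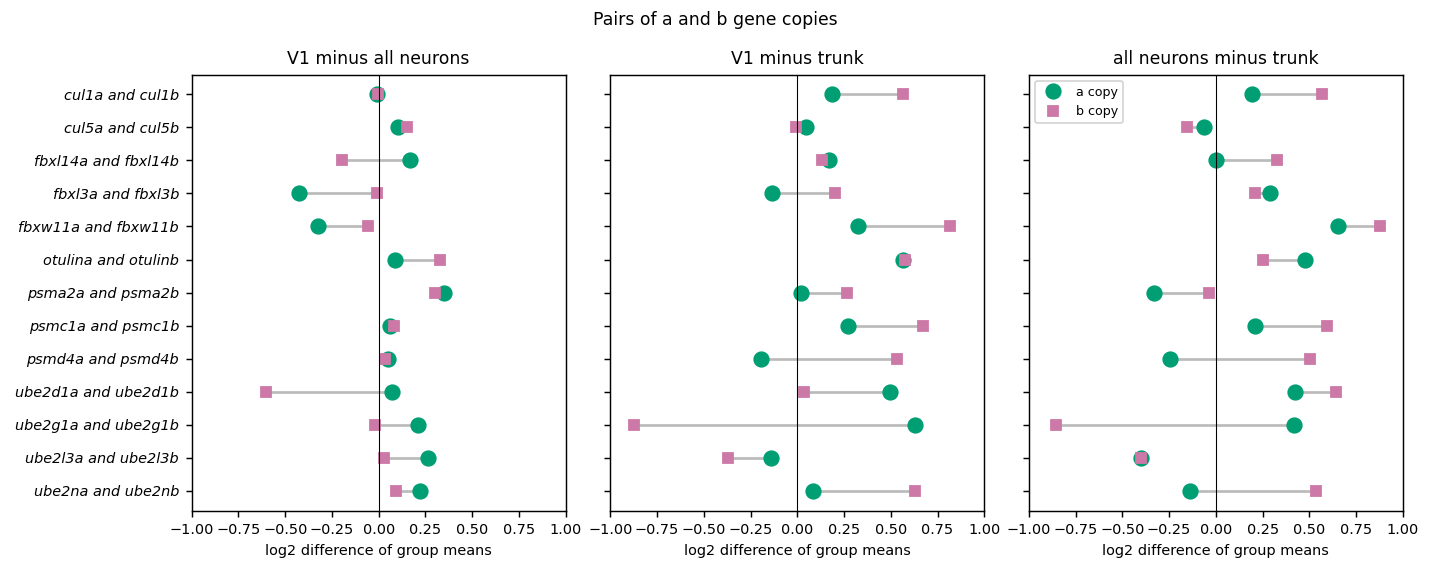
Log2 difference of group means of the a copy (circle) and the b copy (square) of 13 gene pairs, joined by a line, in the 3 comparisons. The longest lines are those of ube2g1a and ube2g1b against trunk, where the a copy is to the right of zero and the b copy to the left.

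A further 147 genes that act in the pathway but fall outside the naming rule were read from the same fit, among them other E3 ligases, cullin adaptors, shuttle proteins and ubiquitin-like modifiers. In V1 against all neurons 11 were higher and 12 lower (15.6%, against 24.2% of all genes), in V1 against trunk 51 and 14 (44.2%, against 43.9%), and in all neurons against trunk 48 and 16 (43.5%, against 46.3%). Keap1a, the cullin adaptor that targets the oxidative stress factor Nrf2, was higher in V1 than in all neurons by 1.72 ± 0.15 (adjusted p = 7.79e-07), and sqstm1, the autophagy receptor p62, by 1.58 ± 0.16 (adjusted p = 4.3e-06). Dcaf15, a substrate receptor of Cul4 ligases, was higher in V1 by 0.82 ± 0.20 (adjusted p = 0.00816) from all neurons and by 1.12 ± 0.22 (adjusted p = 0.000636) from trunk. Without trunk arrays 1 and 2, dcaf15 differed from trunk by 0.71 (adjusted p = 0.028). The red cell, vessel and pigment and crest lists were higher in V1 than in all neurons in the same comparison. Keap1a had means of 8.13 in V1 and 6.41 in all neurons, against 7.18 in trunk. The vessel, pigment and crest and ribosomal protein lists had the same order of groups as keap1a, as had sqstm1. The red cell and skin lists did not, and were highest in trunk, at 8.45 and 7.40, against 8.32 and 6.96 in V1. The part of these lists in these differences was not tested. Lower in V1 than in all neurons were the ligase genes pdzrn3b (-1.04 ± 0.11, adjusted p = 4.33e-06), trim63b (-0.85 ± 0.24, adjusted p = 0.0171) and peli1b (-0.72 ± 0.15, adjusted p = 0.00217). Trim63b, a MuRF gene of muscle, and peli1b lost the call without all-neuron arrays 1 to 3 (-0.20, adjusted p = 0.58, for trim63b and -0.52, adjusted p = 0.0613, for peli1b).

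Against trunk, ndfip1, an adaptor of Nedd4 ligases, was higher by 1.60 ± 0.12 (adjusted p = 9.05e-08) in V1 and 1.29 ± 0.13 (adjusted p = 7.95e-07) in all neurons, and ubl7a by 1.04 ± 0.19 (adjusted p = 0.000381) in V1 and 1.63 ± 0.20 (adjusted p = 6.26e-06) in all neurons. The deubiquitinase gene mindy3 was higher by 1.18 ± 0.18 (adjusted p = 5.5e-05) in all neurons. The largest drops were in the muscle genes klhl41b (-4.98 ± 0.45, adjusted p = 4.32e-07 in V1 and -3.81 ± 0.46, adjusted p = 6.97e-06 in all neurons), trim63a (-4.79 ± 0.44, adjusted p = 4.88e-07 and -4.20 ± 0.45, adjusted p = 2.16e-06 for the same groups), which encodes the muscle ligase MuRF1, and trim55b (-4.15 ± 0.27, adjusted p = 2.05e-08 and -3.65 ± 0.28, adjusted p = 9.33e-08).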

How the data were processed

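The authors deposited log2 values from RMA in Affymetrix Expression Console, as the submitters' processing notes say. Program versions were not given in the sources used here. It held 15617 probe sets on 15 arrays, of which 115 control probe sets were left out. Every array column was used. Symbols came from the platform annotation, and all 153 genes matched a current symbol by gene number. No nucleotide or protein sequence is shown.

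A limma 3.58.1 model (lmFit, eBayes, default prior, R 4.3.3) held the 3 group means over all arrays, and p-values were adjusted by Benjamini-Hochberg over 15502 probe sets within a comparison, with 0.05 as the threshold. A 95% interval is the moderated one. Nothing was filtered for low signal, and the number of arrays limits the precision. The depth of an array is not defined. Tables and figures were made with Python 3.11.15 and matplotlib 3.10.9.

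The genes named are, in each comparison, up to 8 higher and 8 lower with the largest called difference, no overlap between groups and a mean in the higher group at or above 5.52, with ube2g2, ubb, the E1 genes, uchl1, uchl3, skp1, rbx1, the called gene with the largest difference of each role, members of counts of 5 or fewer, and up to 3 other pathway genes each way. Other genes were named as examples after their values were seen. The genes, the lists (268 symbols for the other pathway genes, 147 measured) and the alternatives were chosen with earlier results of these data known. Alternatives were a trended robust prior, only the groups compared, equal array medians, cyclic loess, a filter on dim probe sets, the mean of a gene's probe sets, the replicate number as a block, both sets of arrays named above left out, and each array left out in turn.

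On simulated data with added log2 differences of 0.5, 1 and 2, the fit called 49.3%, 89.6% and 98.5% of the changed probe sets between V1 and all neurons, 40.3%, 92.5% and 98.5% between V1 and trunk, and 43.3%, 80.6% and 100% between all neurons and trunk, with 4.82%, 3.75% and 2.61% of calls false. Far fewer probe sets were changed in the simulation than were called in the real data. Its noise was drawn separately for each probe set, without differences shared by whole arrays. These shares therefore need not hold for the real data.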

Additional observations from a re-analysis of the deposited data

Results flagged for a closer look

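In 144 groups of 4 to 6 arrays, taken over the genes named in the report, 6 held 1 array whose distance to the nearest other exceeded Dixon's 95% limit, and chance alone gives about 1 in 20. For uba1, trunk array 4 was at 9.80, with the other trunk arrays at 10.33 to 10.41. For uba3, all-neuron array 3 was at 8.05, with the others at 8.17 to 8.21. For ube2e2, trunk array 1 was at 9.75, with the others at 9.39 to 9.44. For ube2g2, trunk array 1 was at 7.80, with the others at 8.01 to 8.03. For usp12a, trunk array 3 was at 6.71, with the others at 6.19 to 6.22. For usp42, trunk array 4 was at 7.10, with the others at 6.58 to 6.61. Of these 6 genes, the calls of uba1 and usp42 between V1 and trunk were lost when the array that stood apart was left out.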

How the results depend on the processing

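For 192 differences of single genes, recomputed 4592 times, 4236 values kept direction and side of the threshold, 339 lost the call, 13 gained one and 4 turned sign. Genes outside the naming rule were added to these recomputations after the data were seen. Between V1 and trunk, psma2b was -0.035 (adjusted p = 0.789) and psmc1a -0.030 (0.863) with cyclic loess, and usp42 was 0.131 (0.509) with the mean of its probe sets. Cul3a between all neurons and trunk was -0.286 (0.0666) with that mean. Between V1 and all neurons, 14 higher genes became 9 with cyclic loess and 9 with the replicate block, and 10 lower genes became 6 without all-neuron arrays 1 to 3. Between V1 and trunk, 49 higher genes became 29 with cyclic loess. Of the other pathway genes, 11 higher in V1 than in all neurons became 7 with the replicate block and 5 without all-neuron arrays 1 to 3, an alternative added for this list after the data were seen. The causes were not tested.

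Leaving out each array in turn gave 8 (without all-neuron array 5) to 17 genes higher and 8 to 13 lower between V1 and all neurons, 38 to 51 and 12 to 16 between V1 and trunk, and 38 to 42 and 13 to 18 between all neurons and trunk. For the other pathway genes it gave 7 (without all-neuron array 3) to 12 and 10 to 15, 39 to 51 and 12 to 16, and 40 to 50 and 14 to 17. Whether replicate numbers pair the arrays is not given in the labels and was not tested. Deviations from the group means correlated at -0.135 to 0.356 in 13 same-numbered pairs, over 0.1 in 4 of them. Of the 15 arrays, 5 correlated best with a same-numbered array. With the replicate block, 39 were higher and 12 lower between V1 and trunk, and 39 and 15 between all neurons and trunk. With equal array medians, the counts were 11 and 11, 50 and 15, and 50 and 13. In 34 genes whose signal lay under the median of all values, differences are limited by the background of the arrays.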
